A study of Mus musculus with 12 samples.

Results

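A set of 10 genes of the liver's defence against oxidants and reactive metals was followed: Nfe2l2, Keap1, Nqo1, Hmox1, Gclc, Gclm, Cat, Sod1, Mt1 and Mt2. They were taken by gene symbol from the deposited count tables, and each of the 10 had a row among 23420 symbols. RNA came from livers of 12 C57BL/6 mice about 20 weeks of age, collected at ZT10 (10 hours after lights on), with 3 wild type females, 3 Siah2 KO females, 3 wild type males and 3 Siah2 KO males. Siah2 encodes an E3 ubiquitin ligase, and the KO (Siah2-/-) is a whole-body deletion, so each organ of the KO mice lacked it. Per the study's methods, the KO and wild type lines were established from homozygotes of a heterozygote intercross on this background, and no group received a treatment. By the labels RNA of 3 mice was pooled, but the methods speak of individual livers, and the mice were treated here as individuals. Transcripts were counted by Lexogen QuantSeq, which reads the 3′ end of polyadenylated RNA. The comparisons asked whether loss of SIAH2 changed these transcripts within each sex, whether that change differed between the sexes, and how the sexes differed within each genotype.

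NRF2, the protein of Nfe2l2, is a transcription factor that binds antioxidant response elements together with small MAF proteins. KEAP1 holds NRF2 in the cytoplasm and delivers it to a CUL3 ubiquitin ligase until oxidants or electrophiles modify KEAP1, so much of NRF2 control acts on the protein rather than on its mRNA. Metallothioneins are small cysteine-rich proteins that bind zinc and copper, and their genes are switched on by the zinc sensor MTF1 at metal response elements, by glucocorticoids and, in liver, during the acute phase response.

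Mt2 and Mt1 are neighbours on chromosome 8, at chr8:94172618-94173567 and chr8:94178883-94180327 in the RefSeq annotation of GRCm38.p6 (mm10), with a gap of 5315 bases. Because these 2 genes carried the widest differences, the sequence before the Mt2 start is shown, with a stretch of Mt1 that holds a match. Capitals mark every match, on either strand, to the metal response element cores TGCACNC and TGCGCNC or to the antioxidant response element core TGACNNNGC. In Mt2 (chr8:94172368-94172617, plus strand, the 250 bases before the start) the capitals are, from the left, 2 metal response cores, 1 antioxidant response core and 1 metal response core on the minus strand. The Mt1 stretch (chr8:94179056-94179082, plus strand) holds 1 metal response core. It lies inside the annotated gene and before the start used by the RefSeq promoter table, which is itself 206 bases inside that gene.
Mt2: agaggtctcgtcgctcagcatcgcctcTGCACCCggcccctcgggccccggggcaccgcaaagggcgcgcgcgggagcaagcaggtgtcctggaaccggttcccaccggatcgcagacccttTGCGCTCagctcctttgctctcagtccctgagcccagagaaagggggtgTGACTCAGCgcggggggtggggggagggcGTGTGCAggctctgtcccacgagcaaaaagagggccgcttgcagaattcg
Mt1: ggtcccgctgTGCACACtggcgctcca
A window of this length before a RefSeq promoter start was at hand for 8 of the 10 genes, all but Gclc and Hmox1. The Mt1 window lies mostly inside the annotated gene, so it covers few of the bases before that gene. The metal response core occurred in 3 of those 8 windows (Mt1, Mt2 and Gclm) and in 21.4% of 32851 windows of RefSeq promoters. The antioxidant response core occurred in 4 of the 8 (Nfe2l2, Gclm, Sod1 and Mt2) and in 10.2% of the same windows, and in Gclm the 2 kinds of match overlap. A match describes letters in these windows and does not show that a factor bound there.

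The total count per liver ran from 1293688 to 4056144. Levels are CPM, that is, counts scaled by TMM over the 12 libraries to a common total, and 1 read was worth between 0.244 and 0.757 CPM. Xist and Ddx3y matched the labelled sex in all 12 mice. Siah2 lay between 9.31 and 17.0 CPM in the 6 KO mice and between 12.1 and 27.0 CPM in the 6 wild type mice. The place of the counted tag relative to the deletion is not known here, so Siah2 does not check the genotype labels. Hepatocyte markers (9 of 10 listed genes were in the tables) summed to between 44483 and 72799 CPM in every liver. Wild type female 1091 stood apart, with 42.0 and 45.0 as its chi-square over degrees of freedom against the other wild type females, where the other pairs within groups gave 6.71 to 21.8. For each of the 10 genes the genotype difference in females is therefore given with and without 1091. Libraries of the 2 sexes carry sample-sheet numbers in separate blocks, and such a block and sex cannot be told apart.

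The clearest pattern was in the metallothioneins, which were higher in females than in males of either genotype. In the KO livers Gclc and Cat were lower in females. Nqo1 was higher there, by a call that was lost under DESeq2 and in most fits that left out 1 mouse. Loss of SIAH2 itself gave no called gene among the 10 in females or in males with every mouse kept and low counts filtered. With no filter beyond 1 count, Mt1 and Mt2 were called in males, among 29 genes called in all. Of the 7 other settings that kept every mouse, this was the only 1 that called them. A call here means a Benjamini-Hochberg adjusted p under 0.05 over all genes tested by edgeR's quasi-likelihood test. Unless stated otherwise, it follows edgeR's default filter on low counts.

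**Figure D1:**
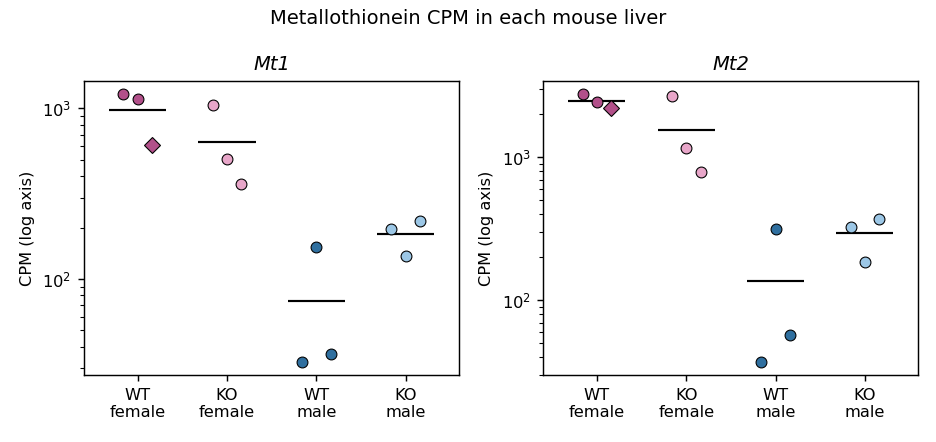
CPM of Mt1 and Mt2 (log axis) in each of the 12 livers, 1 point per mouse, with the group mean as a bar and wild type female 1091 as a diamond. Every female point lies above every male point in both panels, and 1 wild type male (1086) lies near the KO males.

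Mt1 measured 1208, 1141 and 608 CPM in wild type females 1089, 1090 and 1091. In KO females 1070, 1104 and 1105 it measured 1050, 504 and 361 CPM. In wild type males 1055, 1086 and 1087 the values were 32.5, 154 and 36.3 CPM, and in KO males 1075, 1076 and 1081 they were 196, 136 and 217 CPM. The lowest female therefore exceeded the highest male, and the 2 female groups overlapped, as did the 2 male groups. Mt2 measured 2755, 2431 and 2229 CPM in wild type females against 2665, 1167 and 796 CPM in KO females. It measured 37.1, 314 and 57.4 CPM in wild type males and 325, 187 and 373 CPM in KO males, again with no overlap between the sexes. Among all genes tested, the sexes did not overlap in 22.7% in wild type mice and in 30.4% in KO mice. The share over all 12 mice was not counted. Over the 12 livers Mt1 spanned 37.1-fold and Mt2 spanned 74.3-fold, wider than the other 7 genes with counts in every liver, which spanned 1.91-fold to 5.86-fold. Mt1 and Mt2 together took 0.117% to 0.422% of the counts in females and 0.00711% to 0.0596% in males.

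In wild type mice, 2 of the 10 genes were called between the sexes, Mt1 and Mt2, both higher in females, where 1.39% of 9335 genes tested were called and 0.686% were called higher in females. Mt1 averaged 986 ± 329 CPM (SD, n = 3) in females and 74.4 ± 69.2 CPM (SD, n = 3) in males, a 13.2-fold difference (log2 3.73, SE 0.60, edgeR adjusted p = 0.0151). Mt2 averaged 2472 ± 265 CPM in females and 136 ± 154 CPM in males (SD, n = 3 each), an 18.1-fold difference (log2 4.18, SE 0.72, edgeR adjusted p = 0.0196). DESeq2 called both genes too (3.68% of its genes called), as did limma-voom (1.16%). Without 1091 the log2 differences were 3.98 and 4.25, both called (edgeR adjusted p = 0.00195 and 0.00432, background 7.73%). The edgeR calls were lost when wild type male 1055 or 1087 was left out. Without 1055 the log2 differences were 3.37 for Mt1 and 3.74 for Mt2 (edgeR adjusted p = 0.0964 and 0.0858). Without 1087 they were 3.37 and 3.78 (edgeR adjusted p = 0.104 and 0.119).

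In KO mice, 5 of the 9 genes tested were called between the sexes, against 11.5% of 9102 genes, with 3 of the 5 higher in females (background 5.69%) and 2 lower (background 5.78%). Hmox1, with 0 to 15 counts in these livers, did not pass the filter on low counts. Mt1 was 3.47-fold higher in KO females than in KO males, at 638 ± 364 and 183 ± 42.4 CPM (SD, n = 3 each), with a log2 difference of 1.80 (SE 0.30, edgeR adjusted p = 0.00133). Mt2 was 5.20-fold higher, at 1542 ± 989 and 295 ± 96.7 CPM (SD, n = 3 each), with a log2 difference of 2.38 (SE 0.35, edgeR adjusted p = 0.000515). Each call held with any 1 of the 6 mice left out. When all 12 mice shared an estimate of the spread (3.59% of genes called), Mt1 missed the threshold (edgeR adjusted p = 0.0644) and Mt2 did not. By DESeq2 4 of these 5 genes were called (background 8.2%) and by limma-voom 5 (background 12%).

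Other gene sums moved with sex beside the metallothioneins. The 11 Kupffer cell and macrophage markers summed to 377 to 871 CPM in the 6 females, 99.2 to 635 CPM in wild type males and 115 to 261 CPM in KO males. The 8 markers of other immune cells summed to 10.9 to 29.7 CPM in females and 2.44 to 8.93 CPM in males, without overlap. The 6 endothelial markers summed to 216 to 346 CPM in females and 179 to 220 CPM in males, with a narrow overlap. The 12 acute phase genes summed to 10813 to 21447 CPM in females and 9921 to 12538 CPM in males. The 10 glucocorticoid response genes summed to 2653 to 18420 CPM in females and 7809 to 19565 CPM in males, so these overlapped across their range. Pck1 alone averaged 4228 CPM in wild type females, 12725 in KO females, 10500 in wild type males and 12537 in KO males. This sum thus mostly reflects Pck1 and says little about the other genes of that list. Wild type female 1091 had the highest endothelial and acute phase sums and the lowest glucocorticoid response sum. Red blood cell markers (7 of 9 in the tables, 4 of those at 0 in every liver) ran the other way, from 8.39 to 26.7 CPM in females and 84.4 to 153 CPM in males. The part of these lists in the metallothionein differences was not tested. In bulk liver, fewer cells of a type and less RNA per cell cannot be told apart.

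The estimated genotype differences of the metallothioneins had opposite signs in the 2 sexes, without a call in either under the default filter. The female 95% intervals ran from -1.56 to 0.29 for Mt1 and from -1.57 to 0.22 for Mt2, so an opposite response is not shown. In females, where 0% of 9465 genes tested were called, Mt1 had a log2 fold change of -0.63 (SE 0.41, edgeR adjusted p = 0.510) and Mt2 of -0.68 (SE 0.40, edgeR adjusted p = 0.457). Without 1091 these were -0.89 and -0.76 (edgeR adjusted p = 0.127 and 0.237). KO females 1104 and 1105 lay below all 3 wild type females in both genes, while KO female 1070 lay among or near them. In males, where 0% of 8823 genes were called, Mt1 had a log2 fold change of 1.29 (SE 0.43, unadjusted p = 0.0101, edgeR adjusted p = 0.9999) and Mt2 of 1.10 (SE 0.54, edgeR adjusted p = 0.9999). The male calls depended on wild type male 1086 and on the filter on low counts. Without 1086 the log2 fold changes were 2.41 for Mt1 and 2.61 for Mt2, and both were called (edgeR adjusted p = 0.000541 and 0.00111), where 0.0326% of genes were. With every mouse kept and no filter beyond 1 count, both were also called, among 29 genes. The log2 fold changes were then 1.32 and 1.14 (edgeR adjusted p = 2.1e-08 and 5.9e-07), little different from those under the default filter. The share of genes called with no filter beyond 1 count was not counted. That setting also called 484 genes in females, where the default filter called 0. The macrophage marker sum of the wild type males ranged from 99.2 to 635 CPM, and its part in the spread of the metallothioneins was not tested. The female change minus the male change was -1.92 for Mt1 (SE 0.71, 95% interval -3.42 to -0.41, edgeR adjusted p = 0.220) and -1.78 for Mt2 (SE 0.82, 95% interval -3.53 to -0.03, edgeR adjusted p = 0.346). Without 1091 it was -2.18 and -1.86 (edgeR adjusted p = 0.0633 and 0.202). With no filter beyond 1 count it was -1.93 and -1.80 (edgeR adjusted p = 5.0e-05 and 0.000235). Both were then called, among 325 genes, again without a counted share. Under the default filter, the same test read the other way did not show a smaller sex difference in KO mice than in wild type mice.

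**Figure D2:**
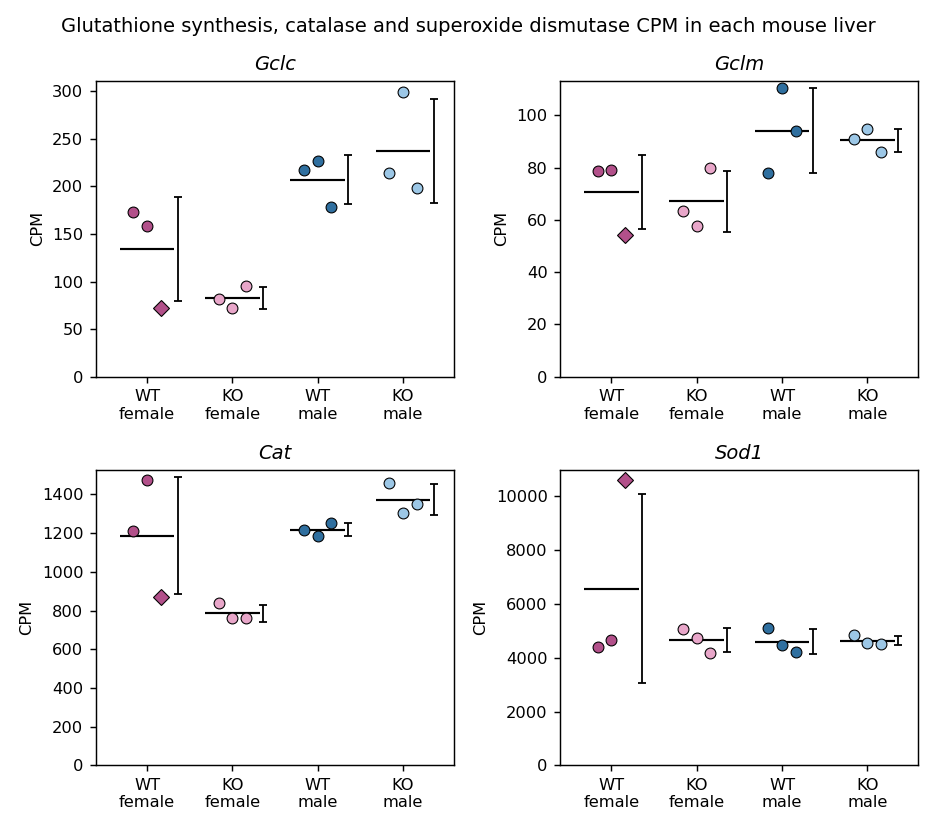
CPM of Gclc, Gclm, Cat and Sod1 in each of the 12 livers, 1 point per mouse, with the group mean as a bar and the SD as a bracket, and wild type female 1091 as a diamond. The KO females are the lowest group for Cat, and 1091 lies at or below the KO females for Gclc and Gclm and far above every other liver for Sod1.

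Gclc and Gclm encode the catalytic and the modifier subunit of glutamate-cysteine ligase, which makes the rate-limiting step of glutathione synthesis. Gclc measured 173, 158 and 72.2 CPM in wild type females 1089, 1090 and 1091, against 81.5, 72.3 and 95.4 CPM in KO females 1070, 1104 and 1105. It measured 217, 226 and 178 CPM in wild type males and 214, 299 and 199 CPM in KO males. Every male was above every female, where the KO sexes did not overlap in 30.4% of genes tested. Among females only 1091 of the wild type mice fell within or below the KO range. Gclc was 2.88-fold lower in KO females than in KO males (log2 -1.53, SE 0.19, edgeR adjusted p = 0.000104), a call that held with each of the 6 mice left out and in the 7 other settings tried. In wild type mice the sexes did not overlap either, as in 22.7% of genes tested, and the difference was not called (log2 -0.62, SE 0.33, edgeR adjusted p = 0.410). Without 1091 it was -0.32 (edgeR adjusted p = 0.323).

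Between the genotypes, the log2 fold change of Gclc was -0.70 in females (SE 0.34, edgeR adjusted p = 0.360) and 0.19 in males (SE 0.19, edgeR adjusted p = 0.9999). Without 1091 the female value was -1.003 and was called (SE 0.18, edgeR adjusted p = 0.00988), in a comparison where 9.64% of 9709 genes were called and 4.43% were called lower. The female change minus the male change in Gclc was -0.89 (SE 0.41, edgeR adjusted p = 0.342) and, without 1091, -1.20 (edgeR adjusted p = 0.0206).

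Gclm, the partner subunit, varied less than Gclc. It measured 78.7, 79.2 and 54.3 CPM in wild type females compared with 63.6, 57.7 and 80.0 CPM in KO females, 78.0, 110 and 94.0 CPM in wild type males and 90.8, 94.8 and 86.0 CPM in KO males. The KO sexes did not overlap, as in 30.4% of genes tested there, with a log2 difference of -0.45 (SE 0.17, edgeR adjusted p = 0.110). The genotypes overlapped in both sexes, with log2 fold changes of -0.07 in females (95% interval -0.65 to 0.50) and -0.07 in males (95% interval -0.44 to 0.30). Without 1091 the female value was -0.25 (edgeR adjusted p = 0.468). Gclm overlaps 2 predicted genes in the RefSeq annotation (Gm46822 and Gm6061), and the strand setting of the counting is not known here.

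Cat encodes catalase, the peroxisomal enzyme that breaks down hydrogen peroxide. It measured 1213, 1476 and 871 CPM in wild type females against 837, 760 and 761 CPM in KO females. It measured 1214, 1187 and 1254 CPM in wild type males and 1461, 1306 and 1350 CPM in KO males. The KO females thus lay below all other 9 livers, by a narrow margin to 1091. Cat was the only 1 of the 10 genes whose female genotypes did not overlap, as in 23.4% of genes tested (12.8% lower), with a log2 fold change of -0.59 (SE 0.27, edgeR adjusted p = 0.329). Without 1091 it was -0.78 and was called (SE 0.17, edgeR adjusted p = 0.0209). In males Cat did not overlap in the other direction, as in 8.93% of genes tested (4.24% higher), with a log2 fold change of 0.17 (SE 0.13, edgeR adjusted p = 0.9999). The female change minus the male change was -0.75 (SE 0.29, edgeR adjusted p = 0.250) and, without 1091, -0.95 (edgeR adjusted p = 0.0165).

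Between the sexes, Cat was 1.75-fold lower in KO females than in KO males (786 ± 44.4 and 1372 ± 80.1 CPM, SD, n = 3 each), a log2 difference of -0.81 (SE 0.15, edgeR adjusted p = 0.00233). That call held with each of the 6 mice left out. The KO sexes did not overlap, as in 30.4% of genes tested there. In wild type mice the sexes overlapped, with a log2 difference of -0.04 (95% interval -0.63 to 0.55), which became 0.15 without 1091.

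Sod1 encodes the copper and zinc superoxide dismutase of the cytosol, which turns superoxide into hydrogen peroxide. It measured 10593 CPM in wild type female 1091 and between 4188 and 5109 CPM in the other 11 livers. The log2 fold change in females of -0.46 (SE 0.35, edgeR adjusted p = 0.581) therefore rested on 1 liver, and without 1091 it was 0.04 (edgeR adjusted p = 0.926). In males it was 0.01 (95% interval -0.29 to 0.30), and between the KO sexes 0.004 (95% interval -0.33 to 0.34).

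**Figure D3:**
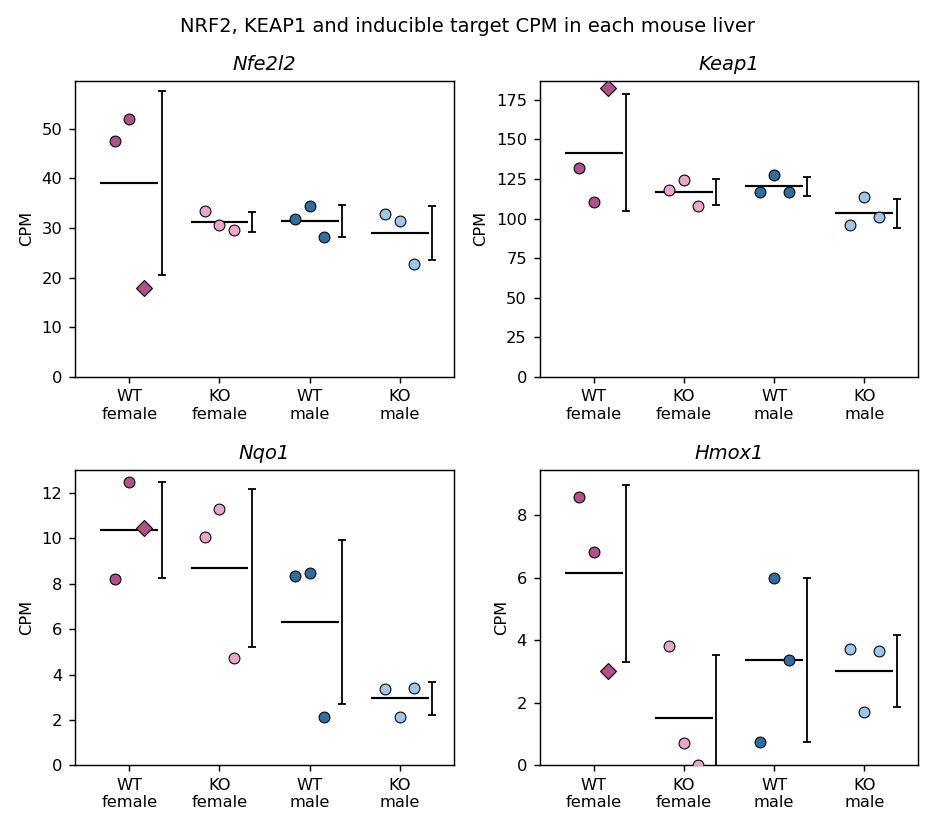
CPM of Nfe2l2, Keap1, Nqo1 and Hmox1 in each of the 12 livers, 1 point per mouse, with the group mean as a bar and the SD as a bracket, and wild type female 1091 as a diamond. Wild type female 1091 is the lowest liver for Nfe2l2 and the highest for Keap1, and Nqo1 and Hmox1 stay under 13 CPM in every liver.

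Neither regulator was called between the genotypes with every mouse kept. Nfe2l2, the activator, measured 47.6, 51.9 and 17.9 CPM in wild type females 1089, 1090 and 1091, against 33.4, 30.7 and 29.6 CPM in KO females. It measured 31.8, 34.5 and 28.1 CPM in wild type males and 32.8, 31.5 and 22.7 CPM in KO males. Wild type females 1089 and 1090 were the 2 highest livers and 1091 the lowest, so the wild type females spanned the other 9. In females the log2 fold change was -0.33 (SE 0.38, edgeR adjusted p = 0.734), and without 1091 it was -0.67 and was called (SE 0.19, edgeR adjusted p = 0.0457). DESeq2 run without 1091 did not call Nfe2l2, while it called Gclc and Cat. In males it was -0.13 (95% interval -0.60 to 0.35).

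Keap1, the NRF2 inhibitor, measured 132, 110 and 182 CPM in wild type females compared with 118, 124 and 108 CPM in KO females, 117, 127 and 117 CPM in wild type males and 95.7, 113 and 101 CPM in KO males. The KO males lay below the wild type males without overlap (background 4.69% lower), with a log2 fold change of -0.22 (SE 0.16, edgeR adjusted p = 0.9999). In females it was -0.26 (95% interval -0.78 to 0.27), and without 1091 it was -0.06. Keap1 was called in none of the 6 comparisons.

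Nqo1 and Hmox1 are classic inducible targets of NRF2, a quinone reductase and the inducible heme oxygenase that opens the heme ring. Both were scarce at this depth. Nqo1 had 23, 42 and 31 counts in wild type females (8.23, 12.5 and 10.5 CPM), 37, 31 and 8 in KO females (10.1, 11.3 and 4.74 CPM), 11, 17 and 7 in wild type males (8.33, 8.49 and 2.14 CPM) and 9, 5 and 14 in KO males (3.35, 2.13 and 3.42 CPM). The KO males were lower than all KO females, where the KO sexes did not overlap in 30.4% of genes tested. The difference was 2.93-fold (log2 1.55, SE 0.43, edgeR adjusted p = 0.0310). The call was lost under DESeq2 (adjusted p = 0.0889) and with all 12 mice in 1 fit (edgeR adjusted p = 0.0931). By edgeR it was also lost when any 1 of 5 of the 6 mice (all but KO female 1105) was left out, with adjusted p up to 0.170. Wild type females were also higher than wild type males in Nqo1, without a call (log2 0.81, SE 0.50, edgeR adjusted p = 0.474). In females the genotypes differed by a log2 fold change of -0.21 (95% interval -1.04 to 0.62), also without 1091, and in males Nqo1 did not pass edgeR's filter on low counts, where DESeq2 gave -1.02 (adjusted p = 0.9999).

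Hmox1 had 24, 23 and 9 counts in wild type females, 14, 2 and 0 in KO females, 1, 12 and 11 in wild type males and 10, 4 and 15 in KO males. Its level was 8.59, 6.83 and 3.04 CPM in wild type females against 3.80, 0.730 and 0 CPM in KO females. KO female 1070 overlapped the wild type females, and the log2 fold change was -1.75 (SE 0.77, unadjusted p = 0.0454, edgeR adjusted p = 0.303). Without 1091 it was -2.04 (edgeR adjusted p = 0.0930). In males Hmox1 did not pass edgeR's filter, and DESeq2, which tested it, did not call it (log2 -0.18, adjusted p = 0.9999).

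**Figure D4:**
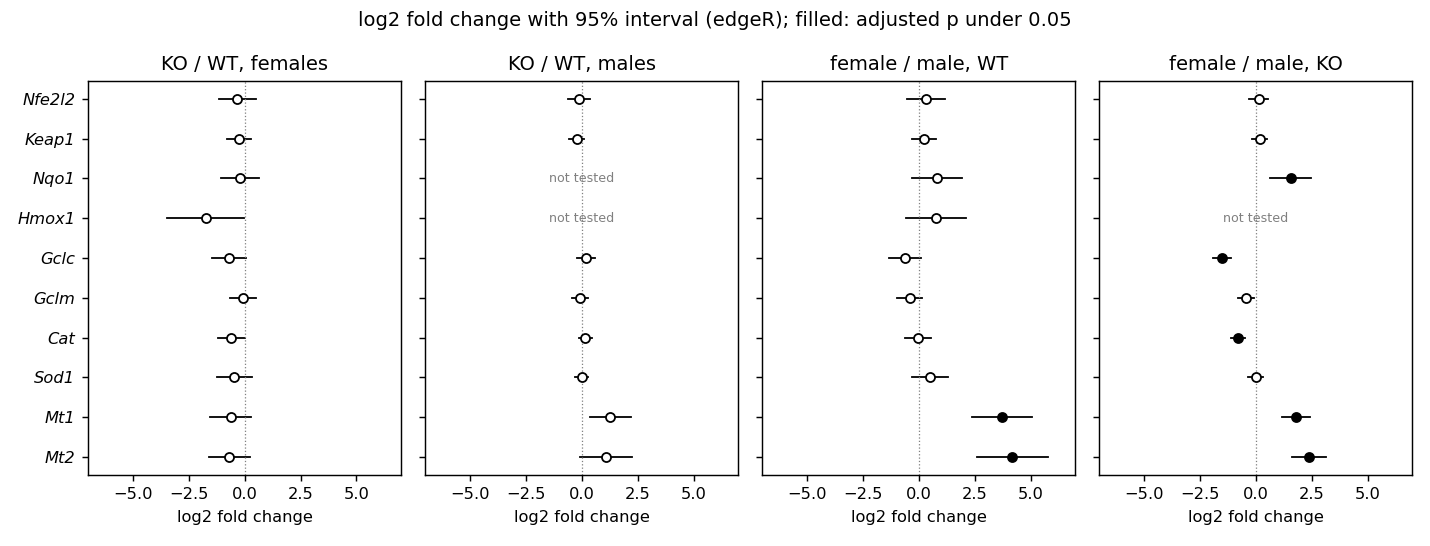
log2 fold change of each gene with its 95% interval (edgeR) in 4 comparisons, where filled points mark an adjusted p under 0.05. In females all 10 points lie to the left of 0 and none is filled, and filled points appear only in the 2 panels that compare the sexes.

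As a group, none of the 10 genes was called between the genotypes in females by edgeR, by DESeq2 (3.8% of its genes called) or by limma-voom (0%). DESeq2 gave no adjusted p for Hmox1, so it could not call that gene. Only Hmox1 passed at an unadjusted p under 0.05, against 15.6% of all genes. All 10 had negative log2 fold changes, with a median of -0.52, where 47.3% of all genes tested were positive and their median was -0.03. These signs share the 3 wild type females, and without 1091 Sod1 turned positive. EdgeR then called 3 of the 10, all lower (Nfe2l2, Gclc and Cat), where 9.64% of genes were called and 4.43% called lower. DESeq2 without 1091 did not call Nfe2l2.

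In males 0 of the 8 genes tested were called by edgeR, and none by DESeq2 (0.037% of its genes called) or limma-voom (0%). Mt1 passed at an unadjusted p under 0.05, against 4.05% of all genes. Of the 8 genes 5 were higher and 3 lower in KO males, with a median of 0.09. For the female change minus the male change, 0 of 10 were called by edgeR (0.255% of 9806 genes called), DESeq2 (4.03%) or limma-voom (0.286%). DESeq2 gave no adjusted p there for Nqo1 or Hmox1, so it could not call them. Mt1, Mt2, Cat and Gclc, 4 of the 10, had an unadjusted p under 0.05, where 14.1% of all genes did, and without 1091 Gclc and Cat were called (background 5.15%). With both sexes combined and no term for sex, 0 of 9 were called by edgeR (0.0111% of 9020 genes called), DESeq2 (0.0056%) or limma-voom (0%), and 0 had an unadjusted p under 0.05, where 5.65% of all genes did. In that comparison Mt1 and Mt2 had log2 fold changes of -0.38 and -0.52, which became 0.31 and 0.21 with a term for sex, and -0.35 and -0.31 without 1091.

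**Figure D5:**
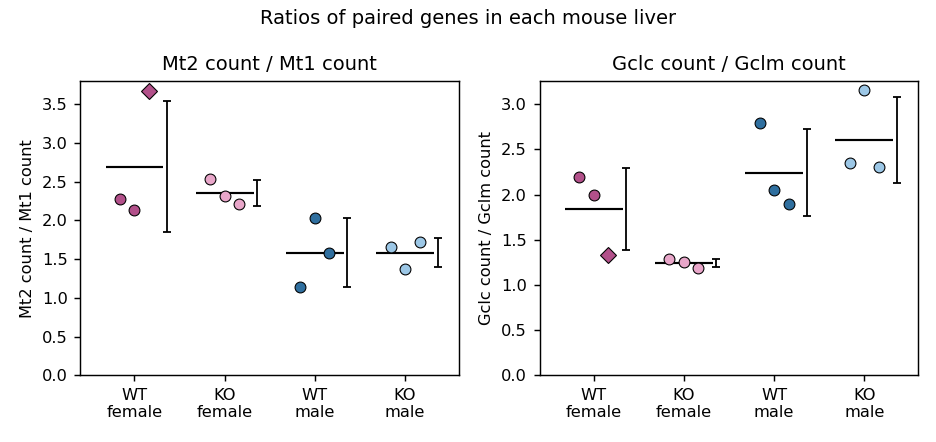
Ratio of Mt2 to Mt1 counts and of Gclc to Gclm counts in each of the 12 livers, 1 point per mouse, with the group mean as a bar and the SD as a bracket, and wild type female 1091 as a diamond. The 6 females lie at or above 2.13 and the 6 males at or below 2.03 for Mt2 over Mt1, and the 3 KO females are the lowest group for Gclc over Gclm.

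Ratios of paired genes within a liver do not depend on how libraries are scaled. They were chosen after the values were seen, so they are given as a description of these livers and without p-values. Mt2 counts over Mt1 counts were 2.52 ± 0.578 in females and 1.58 ± 0.305 in males (SD, n = 6 each), so Mt2 differed more between the sexes than Mt1 did. The range was 2.13 to 3.67 in females and 1.14 to 2.03 in males, with 1091 the highest. Gclc counts over Gclm counts were 2.20, 2.00 and 1.33 in wild type females and 1.28, 1.25 and 1.19 in KO females. In wild type males they were 2.79, 2.05 and 1.89, and in KO males 2.35, 3.16 and 2.31. The KO females had the 3 lowest ratios of the 12 livers, with 1091 next to them.

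The genes whose log2 CPM followed each of the 10 most closely over the 12 livers, among 9805 other genes, were picked by Pearson's r and are given as a description. Livers share sex, genotype and depth, so a high r can arise from any of these. Mt1 and Mt2 had each other as closest gene (r = 0.99), followed by Fcgr3 for both (r = 0.92 and 0.93). Gclc was closest to Setd8, Aox3 and Mup1 (r = 0.96, 0.94 and 0.93), and Cat to Zbtb11, Mup1 and Mtus1 (r = 0.95, 0.93 and 0.91). Mup1, a major urinary protein gene, is known for its higher level in male liver. Sod1 was closest to Tm2d3, Rps20 and F2 (r = 0.96 each), and Keap1 to Rplp2, Mapk3 and Rps9 (r = 0.92, 0.92 and 0.91). Nfe2l2 was closest to Bbip1, Wsb2 and Yme1l1 (r = 0.96, 0.90 and 0.90) and Gclm to Usp7, Ccdc174 and Fbxl20 (r = 0.93, 0.92 and 0.92). The scarce genes had lower values, with Tox, Zfp637 and Tmprss2 for Nqo1 (r = 0.88, 0.87 and 0.87) and Rcc1, Spg11 and Arhgap12 for Hmox1 (r = 0.88, 0.88 and 0.86).

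Other genes of the same pathways were read from lists. None of the NRF2 control, NRF2 target, antioxidant enzyme, metal handling, glucocorticoid response or acute phase genes was called by edgeR between the genotypes in either sex, in the combined comparison or for the difference between the sexes, with every mouse kept. The results for females and for the difference between the sexes changed without wild type female 1091. Without it edgeR called in females 1 NRF2 control gene (higher), 3 of 26 NRF2 targets (2 higher, 1 lower), 5 of 26 antioxidant genes (1 higher, 4 lower) and 2 of 11 acute phase genes (1 higher, 1 lower), against 9.64% of all genes. For the sexes' difference in change, leaving it out gave calls in 2 NRF2 targets, 3 antioxidant genes and 1 metal handling gene, against 5.15% of all genes. DESeq2 with every mouse called in females 1 NRF2 control gene, 2 NRF2 targets and 1 glucocorticoid response gene higher, and 2 antioxidant genes and 1 acute phase gene lower, against 3.8% of its genes. In females the smallest unadjusted p-values among NRF2 targets were those of Gsr, glutathione reductase, at 59.0 ± 3.79 CPM in wild type and 121 ± 4.07 CPM in KO (SD, n = 3 each, log2 1.05, edgeR adjusted p = 0.0962), and Ugdh, which makes UDP-glucuronate (log2 1.10, edgeR adjusted p = 0.147). The log2 fold change in females was 0.99 for Bach1, a repressor that competes with NRF2 (edgeR adjusted p = 0.126). Gpx1, a glutathione peroxidase, had -0.80 (edgeR adjusted p = 0.162) and Glrx3, a glutaredoxin, -1.47 (edgeR adjusted p = 0.0851). Of the metal handling genes, the copper importer Slc31a1 and the zinc transporter Slc30a5 had 0.67 and 1.11 (edgeR adjusted p = 0.189 and 0.197). In males the smallest unadjusted p-value among metal handling genes was that of Slc30a9 (log2 0.47, unadjusted p = 0.0484, edgeR adjusted p = 0.9999).

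Between the sexes the lists did contain calls. In wild type mice 3 of 26 NRF2 targets were called, all lower in females: Gstp1, a glutathione transferase (log2 -3.29, edgeR adjusted p = 0.00148), Gsr (-1.36, edgeR adjusted p = 0.0133) and Ugdh (-1.91, edgeR adjusted p = 0.0183). The extracellular superoxide dismutase gene Sod3 was the 1 of 26 antioxidant genes called, at 12.1 ± 2.12 CPM in wild type females against 3.19 ± 0.264 CPM in wild type males (SD, n = 3 each, edgeR adjusted p = 0.0379). In KO mice 10 of 25 NRF2 targets were called, 3 higher and 7 lower in females. Gstp1 (-2.49), Ugdh (-0.97) and Me1 (-0.73), malic enzyme, were lower, and Cbr1 (0.77) and the transporter Abcc3 (0.999) were higher.

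The remaining lists also had calls in KO mice. Of 26 antioxidant genes, Txnip, a thioredoxin inhibitor, was higher in KO females (log2 0.85, edgeR adjusted p = 0.0157), and Prdx2, a peroxiredoxin, and Gpx1 were lower (-0.72 and -0.53, edgeR adjusted p = 0.00634 and 0.0355). Of 16 metal handling genes tested, Slc31a1 (0.82) and the zinc and manganese importer Slc39a8 (1.17) were higher in KO females, and the exporters Slc30a10 (-0.86) and Slc30a1 (-0.59) were lower. Slc30a1 is, like the metallothioneins, a known target of MTF1, and the part of MTF1 in any of these differences was not tested. Fkbp5 was the 1 of 10 glucocorticoid response genes called (log2 0.82, edgeR adjusted p = 0.0284). Of 10 acute phase genes 5 were called, all higher in KO females (Orm2, Saa2, Apcs, Saa1 and Itih4, log2 0.54 to 2.19). In wild type mice no metal handling, glucocorticoid response, acute phase or NRF2 control gene was called between the sexes by edgeR with every mouse kept. Without 1091 edgeR called 1 NRF2 control gene and 1 metal handling gene lower in wild type females and 2 acute phase genes higher. The NRF2 targets called there went from 3 to 6 (1 higher, 5 lower), and the antioxidant genes from 1 to 7 (4 higher, 3 lower), against 7.73% of all genes. The other counts stand beside 1.39% of all genes called in wild type mice and 11.5% in KO mice.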

How the data were processed

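RNA of each liver was profiled by 3′ end counting, with 3 mice in each of 4 groups. The authors deposited raw read counts, in a table for each sex and without normalization. The submitters' processing notes name STAR, DESeq and mm10 without versions, and the annotation is not known here. Symbols that a spreadsheet had turned into dates (27 rows, 0.2285% to 0.2724% of a library) stayed in the totals. Reads carried no molecular identifiers. Total counts were 1293688 to 4056144 per mouse, and p-values measure the spread between these mice.

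Each comparison was fitted on all genes with edgeR 4.0.16 on R 4.3.3, using filterByExpr, TMM and the two-sided quasi-likelihood F test. Calls were made at 0.05 on Benjamini-Hochberg adjusted p-values. The fit was tested on simulated data. Standard errors were derived from the test statistic. Alternatives were DESeq2 1.42.0, limma-voom (limma 3.58.1), RLE scaling, a minimum of 1 count in all or of 10 in each library in place of filterByExpr, thinning to the smallest total, all 12 mice in 1 fit, a sex term, and leaving out each mouse. For CPM they were plain totals and totals without Rn45s. DESeq2 without wild type female 1091, and repeated draws of the thinning, were added after seeing the data. Lists held NRF2 control (10), NRF2 target (29), antioxidant enzyme (28), metal handling (20), glucocorticoid response (10) and acute phase (12) genes, besides cell type markers. The members and lists were chosen with earlier results of these data known. All members were named. From each list the genes called in a comparison were named, at most 5 by p, or otherwise those with the 2 smallest p, of which the text gives some. Likeness was Pearson's r of log2(CPM + 1). Promoters were RefSeq sequences of GRCm38.p6. No 50-base word from the last 300 bases of a member's GENCODE M1 transcripts occurred in another gene's protein-coding transcript. Tables and figures used Python 3.11.15 with numpy 2.4.6, pandas 2.3.3, scipy 1.17.1 and matplotlib 3.10.9.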

Additional observations from a re-analysis of the deposited data

How the results depend on the processing

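No paired analysis was possible because mice of different groups carry different numbers. The calls of Mt1 and Mt2 between wild type sexes, and of Mt2, Gclc and Cat between KO sexes, held under all 7 alternatives that kept every mouse, and Mt1 between KO sexes under 6 of 7. Members called moved to 2 with no filter beyond 1 count in males and for the difference between the sexes (Mt1 and Mt2 in each), and to 3 with all 12 mice in 4 groups between KO sexes. All genes called moved in females to 305 (DESeq2), 427 (all 12 mice), 484 (no filter) and 5 (thinning), in males to 6 (DESeq2) and 29 (no filter), with both sexes combined to 0 (limma-voom), for the difference between the sexes to 267 (DESeq2) and 325 (no filter), between wild type sexes to 338 (DESeq2), 505 (all 12 mice), 536 (no filter) and 50 (at least 10 counts), and between KO sexes to 352 (all 12 mice). The cause was not tested. With 1 mouse left out, members called ranged from 0 to 3 in females, 0 to 2 in males, 0 to 2 for the difference between the sexes, 0 to 2 between wild type sexes and 4 to 6 between KO sexes, and genes called from 0 to 936, 0 to 3, 0 to 522, 43 to 740 and 486 to 1056, and from 0 to 1 with both sexes combined.

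Signs turned only in log2 fold changes that were not called. With every mouse kept, these were, with thinning, Gclm in males (0.0070), Keap1 in the difference between the sexes (0.012) and Cat between wild type sexes (0.011), and also Mt1 and Mt2 with both sexes combined (0.48 and 0.43 by limma-voom, 0.31 and 0.21 with a term for sex) and Sod1 between KO sexes (-0.011 by DESeq2, -0.0014 with all 12 mice, -0.0052 with no filter). With 1 mouse left out, the ranges that crossed 0 were, in females, Nqo1 -0.42 to 0.033, Gclm -0.25 to 0.027 and Sod1 -0.67 to 0.036. In males they were Gclm -0.17 to 0.076, Sod1 -0.038 to 0.099, Gclc -0.010 to 0.33 and Nfe2l2 -0.21 to 0.049. With both sexes combined they were Mt1 -0.90 to 0.075, Gclc -0.37 to 0.054, Gclm -0.17 to 0.031 and Sod1 -0.32 to 0.016. For the difference between the sexes they were Nfe2l2 -0.55 to 0.060, Keap1 -0.21 to 0.17, Gclm -0.18 to 0.12 and Sod1 -0.70 to 0.028. Between wild type sexes they were Cat -0.22 to 0.15 and Sod1 -0.014 to 0.70, and between KO sexes Sod1 -0.051 to 0.064 and Nfe2l2 -0.049 to 0.21. Gclm between KO sexes was called with KO female 1105 left out (-0.59, edgeR adjusted p = 0.0429). DESeq2 without wild type female 1091, chosen after seeing the data, called 807 genes and 2 of the 10 in females, 626 genes and 2 of the 10 for the difference between the sexes (Gclc and Cat in each, so the Nfe2l2 call in females was not kept) and 741 genes between wild type sexes. The share of all genes tested was not counted for this setting, so these member counts have no background beside them. Under it the signs turned for Sod1 in females (0.045) and with both sexes combined (0.029), for Sod1 and Keap1 in the difference between the sexes (0.030 and 0.17), and between wild type sexes for Sod1 (-0.038), Keap1 (-0.011) and Cat (0.12). Thinning is a random draw, and the values above come from 1 draw. Over 10 draws, also added after seeing the data, genes called ranged from 0 to 5 in females, 0 to 1 in males, 0 to 1 with both sexes combined, 0 to 31 for the difference between the sexes, 106 to 136 between wild type sexes and 749 to 815 between KO sexes, and members called were 0, 0, 0, 0, 2 and 4 in every draw. Group mean CPM on plain totals or without Rn45s moved by over 1 SD in 13 cases and by less in 67. Depth limits Nqo1 and Hmox1 most, at 0 to 42 counts a mouse.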
